A study of Mus musculus with 9 samples.

Results

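The comparison set immune cells from melanomas of mice given an antibody against B7-H3 beside those of mice given an antibody against PD1. It took the 3 libraries titled anti-B7-H3 and the 3 titled anti-PD1, 6 of the series' 9 libraries, and left the 3 IgG control libraries out of every test. All mice were C57BL/6J, with YUMM 2.1 mouse melanoma cells grown under the skin as an allograft, and antibody was given once a tumour had reached 20 to 50 mm3. The RNA came from CD45-positive cells, leukocytes sorted out of the tumour, and was sequenced in bulk. The sources used here give neither the clone, dose and sampling day of the antibodies nor the age and sex of the mice. The arm with both antibodies that the series' design names was not analysed here. The labels do not tell whether the libraries of a group came from separate mice, so p-values measure the spread between these libraries, which may be technical.

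PD1 (gene Pdcd1) is an inhibitory receptor on activated T cells that is engaged by the ligands PD-L1 (Cd274) and PD-L2 (Pdcd1lg2) on tumour and myeloid cells. B7-H3 (Cd276) is a surface protein of the B7 family that is found on many tumours and on some myeloid and stromal cells, and its receptor on immune cells is not settled. Antibodies to either are used to release immune cells from inhibition in tumours. The comparison asks how the immune infiltrates under the 2 antibodies differed.

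Gene counts of the 6 libraries summed to between 15009389 and 31447314, with the smallest total in anti-B7-H3 replicate 1. Values in CPM (counts per 1000000) below are scaled by the trimmed mean of M values, and log2 differences are coded anti-PD1 minus anti-B7-H3, so a positive value is a higher level with anti-PD1. Ptprc, the gene of CD45, stood at 1927 ± 318 CPM in the anti-B7-H3 libraries and at 2003 ± 314 CPM in the anti-PD1 libraries (SD, n = 3 each). Of 11 melanocyte and melanoma genes 4 were abundant enough to be tested, and the list's summed level was at most 19.6 CPM in the 6 libraries. A pair of libraries stood apart. Anti-PD1 replicate 3 had 1108 tested genes at 0 counts against 158 to 220 in the other 5, and it alone lay far out on the first principal component (96.7 against -24.3 to -15.9, 37.7% of the variance). Anti-B7-H3 replicate 1 lay far out on the second component (75.4 against -25.2 to 4.16, 24.7% of the variance) and had 9.36% of its counts on ribosomal protein genes against at most 4.6% in the others. For a number of results that move with either library, values without it are given too.

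No single gene separated the treatments once 12966 tested genes were accounted for. The test, edgeR's quasi-likelihood test at a Benjamini-Hochberg adjusted p of 0.05, called 0 genes higher with anti-PD1 and 0 higher with anti-B7-H3, which is 0% of the tested genes in each direction. The smallest adjusted p was 0.104, for the chemokine gene Cxcl2. At an unadjusted p under 0.05 there were 442 genes higher with anti-PD1 (3.41%) and 282 higher with anti-B7-H3 (2.17%), 724 in all. The lowest anti-PD1 library was above the highest anti-B7-H3 library for 849 genes (6.55%), and the reverse held for 910 (7.02%). DESeq2 on the same counts called 47 genes higher with anti-PD1 and 12 higher with anti-B7-H3, and limma-voom with quality weights called 0 in each direction.

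The data also bound how far apart the treatments can be. For 6004 genes (46.3%) the 95% interval of the difference lay wholly within 2-fold in either direction, and among the 3855 genes with a mean of at least 50 CPM this held for 3271 (84.9%). The median log2 difference over all tested genes was -0.03, with 46.7% of genes above 0, and the median standard error was 0.33.

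**Figure D1:**
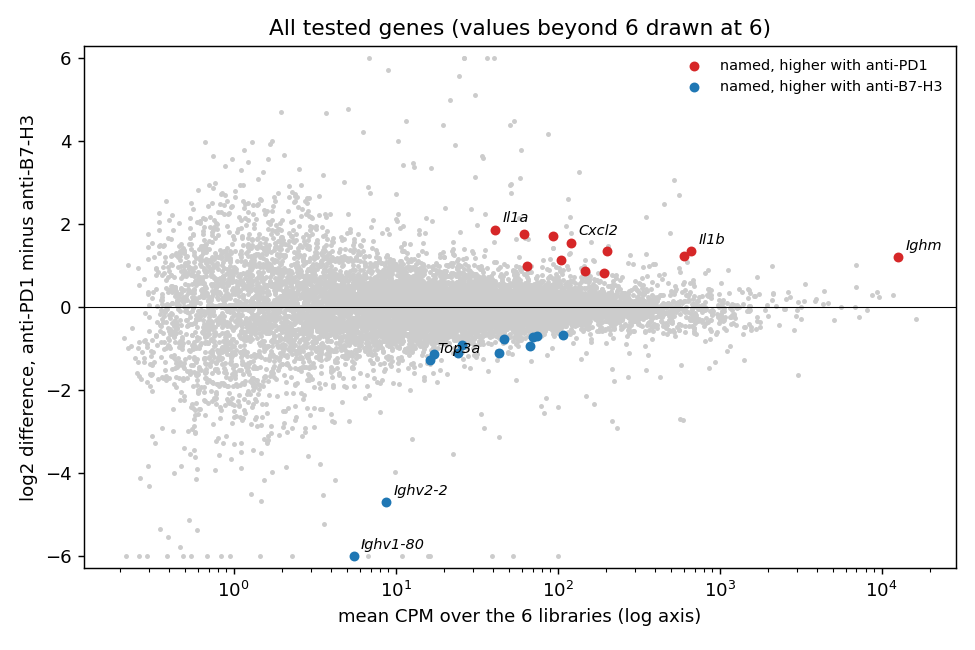
Log2 difference (anti-PD1 minus anti-B7-H3, vertical axis) of each tested gene against its mean CPM over the 6 libraries (horizontal log axis). Red and blue points are the 12 genes per direction chosen by smallest p among genes without overlap of the groups. Values beyond 6 are drawn at 6. The spread of the grey points narrows as the level grows, around a median of -0.03, and Cxcl2 at 1.56 has the smallest adjusted p, 0.104.

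The genes nearest to the threshold on the anti-PD1 side were mostly inflammatory signals of myeloid cells and genes of antibody secretion. None of the 12 passed edgeR's test, while DESeq2 called all 12, so their values are given as description. The 12 genes of either side were chosen among those whose groups did not overlap. Their lack of overlap is therefore a condition of choice and not a result. Cxcl2 encodes a chemokine that draws neutrophils through the receptor Cxcr2. It stood at 55.8, 67.3 and 61.8 CPM in anti-B7-H3 replicates 1 to 3 and at 166, 172 and 208 CPM in the anti-PD1 replicates. The ratio of means was 2.95 and the log2 difference was 1.56 ± 0.16 (SE, edgeR adjusted p = 0.104). In the IgG libraries Cxcl2 was at 4.44 to 10.2 CPM, below all 6 others.

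Il1b and Il1a encode the interleukin 1 cytokines that start fever and leukocyte recruitment. Il1b was at 292, 342 and 496 CPM with anti-B7-H3 and at 954, 808 and 1120 CPM with anti-PD1, a log2 difference of 1.35 ± 0.23 (edgeR adjusted p = 0.541). Il1a was at 12.7, 18.2 and 22 CPM with anti-B7-H3 and at 53.1, 61.9 and 78.8 CPM with anti-PD1, a log2 difference of 1.87 ± 0.27 (edgeR adjusted p = 0.372). Both genes were lowest in the IgG libraries, where Il1b did not exceed 46.7 CPM and Il1a 4.44 CPM. The libraries carry no strand information, and exons of Il1a share 222 bases and those of Il1b 25 bases with a gene on the opposite strand (Gm14023 and Il1bos), whose reads cannot be told apart from theirs.

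Promoters of these inflammatory genes are shown because NF-kB and AP-1, which bind kappa-B and AP-1 motifs, are the textbook regulators of this group. The sequences are the 250 bases before the RefSeq start on GRCm38.p6, 5′ to 3′ on the gene's strand, with motif letters in capitals.
Cxcl2, chr5:90903649-90903898, plus strand: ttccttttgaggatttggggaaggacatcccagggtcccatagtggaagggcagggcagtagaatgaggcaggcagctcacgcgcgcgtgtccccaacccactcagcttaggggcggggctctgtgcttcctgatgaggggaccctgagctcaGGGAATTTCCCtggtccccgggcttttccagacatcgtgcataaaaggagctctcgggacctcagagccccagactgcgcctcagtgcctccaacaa
Il1a, chr2:129309973-129310222, minus strand: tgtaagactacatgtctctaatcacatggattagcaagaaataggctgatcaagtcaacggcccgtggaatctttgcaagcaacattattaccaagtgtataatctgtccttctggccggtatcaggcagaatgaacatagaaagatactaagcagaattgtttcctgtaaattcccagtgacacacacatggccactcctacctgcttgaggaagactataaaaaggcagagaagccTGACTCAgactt
The capitals in Cxcl2 are a pair of overlapping kappa-B matches on opposite strands that begin 97 and 96 bases before the start. The capitals in Il1a are an AP-1 match (TGANTCA) that begins 12 bases before the start. Both strands of 250 bases before to 50 after the start were searched, and no kappa-B or AP-1 match was found in that window of Il1b. A kappa-B match was held by 5.14% and an AP-1 match by 8.97% of the promoters of 27025 genes. Of the 10 genes with a RefSeq promoter among the 12 on the anti-PD1 side, 1 held a kappa-B match (Cxcl2) and 2 an AP-1 match (Il1a and Plaur). Of the 8 with one on the anti-B7-H3 side, 1 held a kappa-B match (Urb1) and 0 an AP-1 match. A match describes letters and shows no binding.

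The interleukin 1 list held both cytokines, their receptors and genes of the inflammasome. Of its 16 tested members 10 had a log2 difference above 0, 7 were higher in every anti-PD1 library than in any anti-B7-H3 library and 0 the reverse, and 7 had an unadjusted p under 0.05, beside 6.55% and 3.41% of all tested genes. Those 7 included both sides of the system. Il1rn, the receptor antagonist, was at 35.3, 28.4 and 27.6 CPM with anti-B7-H3 and 61.9, 48.2 and 77.4 CPM with anti-PD1. Il1r2, the decoy receptor carried by neutrophils and some T cells, was at 162, 228 and 352 CPM against 522, 472 and 475 CPM. The list's median log2 difference was 0.43, beside -0.03 over all genes. It was 0.75 without anti-B7-H3 replicate 3. Members with an unadjusted p under 0.05 and anti-PD1 higher numbered 5 without anti-B7-H3 replicate 1, with 1 the reverse. They numbered 5 without anti-PD1 replicate 3, with 0 the reverse.

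Chemokines that attract neutrophils and monocytes were in the same position. Of 10 tested members all had a log2 difference above 0, 5 kept the groups apart with anti-PD1 higher (6.55% of all tested genes), and the median was 0.79. Cxcl1, a further ligand of Cxcr2, was at 0.945, 1.55 and 0.36 CPM with anti-B7-H3 and at 5.27, 4.53 and 4.50 CPM with anti-PD1, levels near the bottom of the table. Ccl3, which acts on monocytes and T cells, was at 38.5 to 56.2 CPM against 57.8 to 76.9 CPM, and Ccl7 overlapped between the groups at 5.09 to 11.8 CPM against 10.2 to 33.1 CPM. The median depended on the rare members, since it was 0.49 where a gene had to reach 5 CPM in 3 libraries. Members with an unadjusted p under 0.05 numbered 4 (3.41% of all tested genes), and 2 (2.84%) without anti-B7-H3 replicate 1.

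Most neutrophil genes had a higher mean with anti-PD1. Of 18 markers 16 were tested (Camp and Ngp were too low), 14 had a log2 difference above 0, 10 kept the groups apart with anti-PD1 higher (6.55% of all tested genes) and 0 the reverse. The untested Camp had 111 counts with anti-B7-H3, all in a single library, and 0 with anti-PD1. Ngp had 189 counts against 27. Members with an unadjusted p under 0.05 numbered 11 of 16, against 3.41% of all genes. They numbered 9 without anti-B7-H3 replicate 1 and 9 without anti-PD1 replicate 3. The median log2 difference was 1.03. Summed over the list, the anti-B7-H3 libraries held 687, 615 and 992 CPM and the anti-PD1 libraries 1611, 1677 and 1417 CPM, while the IgG libraries held 247 to 327 CPM. Il1r2, which some T cells carry too, gave 162, 228 and 352 CPM of the anti-B7-H3 sums. It gave 522, 472 and 475 CPM of the anti-PD1 sums and 136 to 216 CPM of the IgG sums. In bulk RNA, more cells of a type and more RNA of those genes per cell cannot be told apart.

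S100a9, a subunit of calprotectin that neutrophils store in bulk, was at 121, 82.4 and 138 CPM with anti-B7-H3 and at 247, 358 and 268 CPM with anti-PD1, a log2 difference of 1.35 ± 0.23 (edgeR adjusted p = 0.541). Hdc, the enzyme that makes histamine, was at 24.1, 19.5 and 41.9 CPM against 90.0, 108 and 90.9 CPM, a log2 difference of 1.76 ± 0.29 (edgeR adjusted p = 0.541). Hdc is also a gene of mast cells and basophils, whose markers were below 0 in 11 of 12, with a median that went from -1.24 to -0.21 without anti-B7-H3 replicate 2. G0s2, an inhibitor of lipid breakdown, was at 29.2 to 40.0 CPM against 52.7 to 95.3 CPM, and Clec4e, a receptor for mycobacterial glycolipid, at 14.5 to 19.6 CPM against 29.8 to 41.8 CPM. Cxcr2, the neutrophil chemokine receptor, was at 11.7, 8.98 and 21.1 CPM with anti-B7-H3 and at 23.3, 21.5 and 28.4 CPM with anti-PD1. All 5 genes kept the groups apart, Cxcr2 by the narrowest gap.

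**Figure D2:**
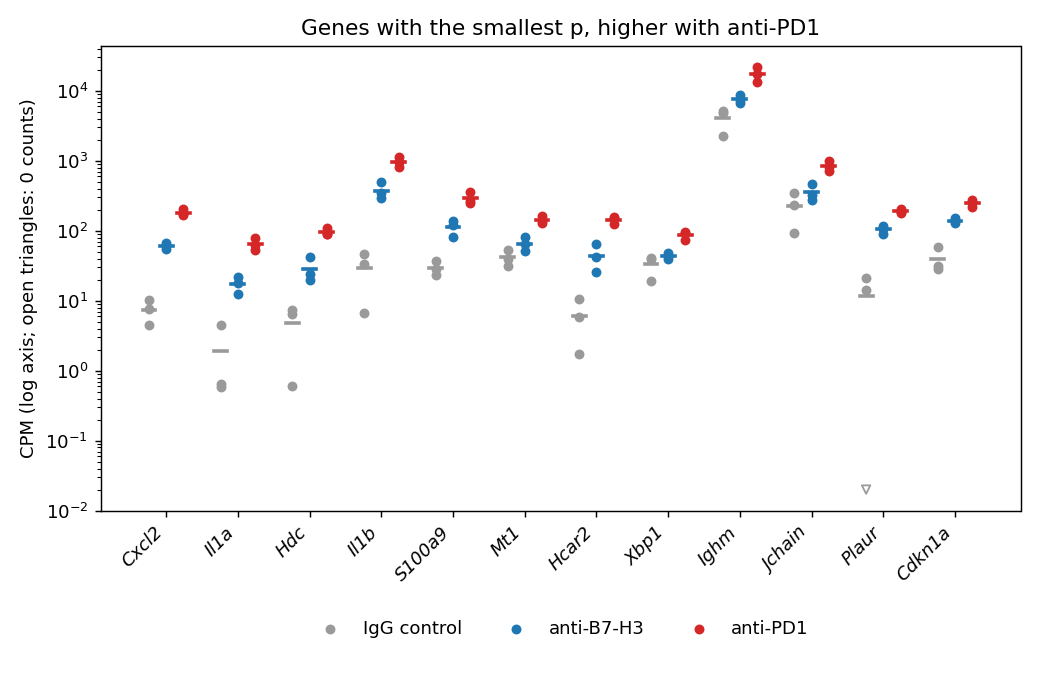
CPM (log axis) of the 12 genes with the smallest p on the anti-PD1 side, 1 point per library and a bar at each group's mean, with IgG in grey, anti-B7-H3 in blue and anti-PD1 in red; the open triangle is a library at 0 counts. The genes were chosen among those without overlap of the groups, so in each the anti-PD1 points lie above the anti-B7-H3 points. Cxcl2 lies at 166 to 208 CPM against 55.8 to 67.3 CPM.

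Targets of TNF and NF-kB showed smaller differences over more genes. Of 27 tested members 24 had a log2 difference above 0, 12 kept the groups apart with anti-PD1 higher and 0 the reverse, and 12 had an unadjusted p under 0.05 (6.55% and 3.41% of all tested genes). Members with an unadjusted p under 0.05 numbered 10 without anti-B7-H3 replicate 1 and 8 without anti-PD1 replicate 3. The median was 0.51, and 0.33 without anti-B7-H3 replicate 1, which had the lowest summed level (3372 CPM against 4641 and 5066 CPM in the other anti-B7-H3 libraries and 5420 to 6790 CPM with anti-PD1). Plaur, the urokinase receptor of activated myeloid cells, was at 89.4, 119 and 106 CPM against 185, 208 and 180 CPM, a log2 difference of 0.87 ± 0.16 (edgeR adjusted p = 0.557). Nfkbia, the inhibitor that NF-kB induces against itself, was at 1070 to 1430 CPM against 1720 to 2490 CPM. Ptgs2, the inducible cyclooxygenase of prostaglandin synthesis, was at 33.8, 59.2 and 95.3 CPM against 164, 131 and 138 CPM. Bcl2a1b and Bcl2a1d, survival genes of the BCL2 family, had log2 differences of 0.57 ± 0.14 and 0.64 ± 0.16, and as near-identical copies they may share reads.

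Genes of arginine and itaconate metabolism, which myeloid cells use to restrain T cells and microbes, all had a log2 difference above 0 in the 9 tested. Of these 6 kept the groups apart with anti-PD1 higher, beside 6.55% of all tested genes, and the median was 0.85. Acod1, which makes itaconate, was at 20.5, 21.8 and 48.6 CPM with anti-B7-H3 and at 103, 100 and 85.1 CPM with anti-PD1. Arg2, the mitochondrial arginase, was at 6.69, 4.34 and 9.52 CPM against 28.9, 21.2 and 20.8 CPM, with a log2 difference of 1.79 ± 0.36 (edgeR adjusted p = 0.632). Slc7a2, an arginine transporter, was at 10.5 to 13.6 CPM against 17.9 to 40.6 CPM, Ass1, which rebuilds arginine, at 87.0 to 90.9 CPM against 99.7 to 210 CPM, and Nos2, the inducible nitric oxide synthase, at 3.35, 7.4 and 5.98 CPM against 10, 12.6 and 12.9 CPM. Members with an unadjusted p under 0.05 numbered 6 (3.41% of all tested genes), and 3 without anti-PD1 replicate 3.

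Hypoxia and glycolysis genes followed, with 16 of 19 tested members above 0, 9 apart with anti-PD1 higher (6.55% of all tested genes), 1 the reverse (7.02%) and a median of 0.58. Bnip3, a mitophagy receptor induced by low oxygen, was at 45.4, 57.5 and 75.2 CPM with anti-B7-H3 and at 110, 88.3 and 137 CPM with anti-PD1. Hilpda, which blocks lipid breakdown under hypoxia, was at 29.7 to 58.0 CPM against 63.7 to 102 CPM, and Pfkfb3, an activator of glycolysis, at 11.4 to 14.1 CPM against 19.8 to 25.8 CPM. P4ha1, a collagen prolyl hydroxylase subunit, was at 74.8 to 92.6 CPM against 108 to 137 CPM. In each of these 4 genes the groups did not overlap.

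The remaining genes on the anti-PD1 side were of other kinds. Hcar2, a receptor for niacin and ketone bodies on myeloid cells, was at 25.8, 42.6 and 64.2 CPM with anti-B7-H3 and at 126, 157 and 150 CPM with anti-PD1. Mt1, a metallothionein that binds zinc and copper, was at 64.1, 81.1 and 51.5 CPM against 131, 163 and 139 CPM. Cdkn1a, the p21 cell cycle inhibitor, was at 152, 137 and 129 CPM against 275, 216 and 251 CPM, and shares 273 exonic bases with AC167363.2 on the opposite strand. For Hcar2 the ratio of means was 3.27.

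Antibody secretion was the other main group. Immunoglobulin genes took 1.46%, 1.69% and 2.32% of the counts in the anti-B7-H3 libraries and 4.98%, 3.89% and 3.05% in the anti-PD1 libraries, a mean of 1.82% ± 0.443 against 3.97% ± 0.967 (SD, n = 3 each). The groups did not overlap, and the exact two-sided permutation test gave p = 0.1, the smallest that 3 against 3 allows (0.5 after adjustment over 5 gene classes). The IgG libraries were at 0.42% to 1.43%. Ighm, the constant region of IgM, was at 6800, 7290 and 8750 CPM with anti-B7-H3 and at 21900, 17600 and 13400 CPM with anti-PD1, a log2 difference of 1.21 ± 0.22 (edgeR adjusted p = 0.541). Jchain, which joins IgM and IgA into polymers, was at 328, 280 and 471 CPM against 982, 726 and 817 CPM (log2 difference 1.23 ± 0.23, edgeR adjusted p = 0.556).

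Plasma cell genes were on the same side in 12 of 13 tested members, with 8 apart with anti-PD1 higher (6.55% of all tested genes), 0 the reverse and a median of 0.74. Xbp1, the transcription factor of secretory cells, was at 39.7, 47.9 and 43.2 CPM with anti-B7-H3 and at 91.8, 73.2 and 94.8 CPM with anti-PD1. Mzb1, a chaperone of antibody assembly, was at 41.9 to 55.2 CPM against 73.3 to 146 CPM, and Irf4, which plasma cells, activated T cells and some dendritic cells use, at 20.2 to 23.6 CPM against 31.2 to 37.8 CPM. Of the constant region genes 6 of 10 tested were above 0 and 4 below, so the class was not of 1 direction. Igkc, the kappa constant region, was at 3800 to 5830 CPM against 7140 to 11700 CPM, and Iglc2 at 177 to 254 CPM against 286 to 1330 CPM. Iglc1 was at 39.9 to 242 CPM against 467 to 1300 CPM, and lambda constant genes are near-copies whose reads may be split between them. Constant genes with an unadjusted p under 0.05 and anti-PD1 higher numbered 4 (3.41% of all tested genes), and 2 (2.84%) without anti-B7-H3 replicate 1. The 1 with anti-B7-H3 higher was Igha, the constant region of IgA, named after its values were seen, at 235, 7.43 and 353 CPM against 5.2, 3.77 and 0 CPM (log2 difference -6.04 ± 2.13).

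B cell markers were not higher with anti-PD1. Of 18 tested members 2 were above 0 and 16 below, the median was -1.21 and 0 had an unadjusted p under 0.05 in either direction. That median came with 1 library, since anti-B7-H3 replicate 1 held 1207 CPM of B cell genes against 661 and 523 CPM in the other anti-B7-H3 libraries and 529 to 621 CPM with anti-PD1. Without it the median was 0.04. Cd79b, a subunit of the B cell receptor, was at 84.6 CPM in that library, 13.2 and 19.1 CPM in the others and 13.9 to 20.8 CPM with anti-PD1. Fcer2a, the low-affinity IgE receptor, was at 50.8 CPM there and at no more than 3.88 CPM in the remaining 5 libraries.

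**Figure D3:**
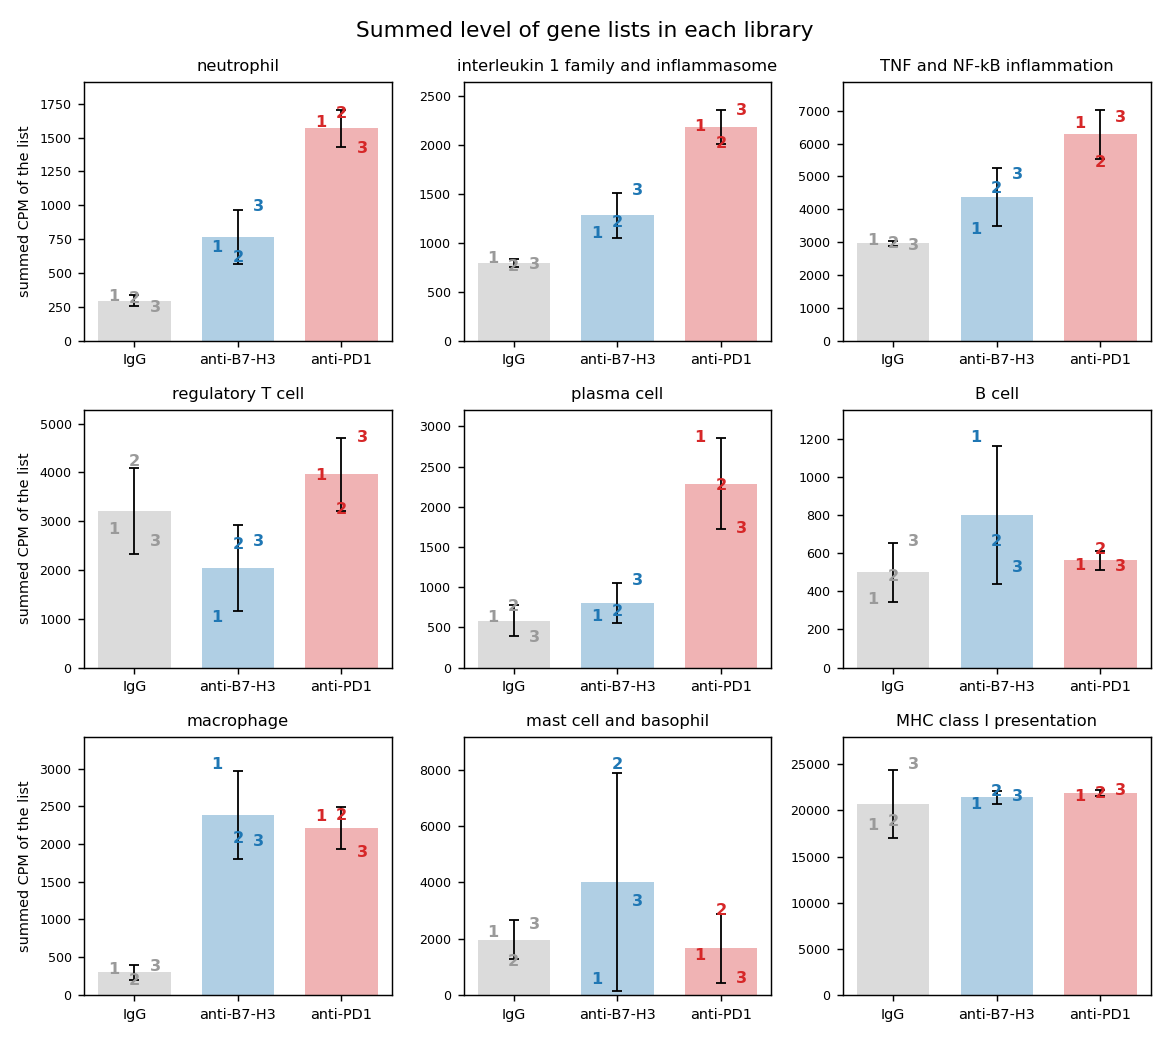
Summed CPM of 9 gene lists in each group, with bars at the group mean, error bars of 1 SD (n = 3) and each library drawn as its replicate number. Neutrophil, interleukin 1, NF-kB, regulatory T cell and plasma cell sums do not overlap between anti-B7-H3 and anti-PD1, B cell and mast cell sums are set by single anti-B7-H3 libraries (1207 CPM in replicate 1 and 8205 CPM in replicate 2), and MHC class I sums lie between 20690 and 22190 CPM in the 6 libraries.

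A pair of variable (V) segments of antibody genes had the smallest p on the anti-B7-H3 side. Ighv2-2 (chr12:113588267-113588702, minus strand) had 10.1, 32.3 and 8.11 CPM with anti-B7-H3 and 0.671, 0.689 and 0.573 CPM with anti-PD1, from 1390 and 53 counts. Its log2 difference was -4.70 ± 0.65 (edgeR adjusted p = 0.372). Ighv1-80 (chr12:115912344-115912776) had 2.55, 8.98 and 21.6 CPM, 1027 counts in all, with anti-B7-H3 and 0 counts in each anti-PD1 library, which against a floor of 3 counts over the group is at least 362-fold higher with anti-B7-H3 (edgeR adjusted p = 0.541). The IgG libraries differed among themselves as widely, at 9.89, 1.20 and 0.653 CPM for Ighv2-2 and at 29.1, 0.12 and 0.151 CPM for Ighv1-80.

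V segments resemble each other, which limits what a count on 1 of them shows. Among 113 Ighv segments of the annotation the nearest to Ighv2-2 was Ighv2-4, identical at 342 of 350 aligned bases (97.7%). The longest run that both share is printed to show how much sequence cannot assign a read to either.
Ighv2-2 and Ighv2-4, shared run of 160 bases: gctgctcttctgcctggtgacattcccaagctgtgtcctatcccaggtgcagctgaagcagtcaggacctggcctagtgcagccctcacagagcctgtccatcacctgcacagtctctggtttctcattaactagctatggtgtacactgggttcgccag
The nearest to Ighv1-80 was Ighv1-81, at 89.2% identity with a shared run of 52 bases, and Ighv1-81 itself had a log2 difference of 0.49 (edgeR adjusted p = 0.991). Most segments had a log2 difference above 0: 43 of 60 tested Ighv segments and 39 of 61 tested Igkv segments, with medians of 0.74 and 0.89. Single Ighv segments ranged from -12.72 to 8.49. Groups did not overlap for 5 Ighv segments with anti-B7-H3 higher and 0 with anti-PD1 higher, and for 4 and 4 Igkv segments. Of all tested genes 7.02% were apart with anti-B7-H3 higher and 6.55% with anti-PD1 higher. An unadjusted p under 0.05 in edgeR with anti-B7-H3 higher was held by 6 Ighv and 4 Igkv segments (2.17% of all tested genes). With anti-PD1 higher it was held by 1 segment of each locus (3.41%). Of the 12 genes that DESeq2 called higher with anti-B7-H3, 7 were V segments, Ighv2-2 and Ighv1-80 among them.

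The other 10 genes on the anti-B7-H3 side were not V segments, and DESeq2 called 1 of them. Top3a, that gene, encodes a topoisomerase that resolves DNA crossings, and was at 23.6, 23.2 and 22.6 CPM with anti-B7-H3 and at 10.3, 9.03 and 9.41 CPM with anti-PD1, a log2 difference of -1.27 ± 0.25 (edgeR adjusted p = 0.621, DESeq2 adjusted p = 0.0065). Ipo5, an importin that carries proteins into the nucleus, was at 88.6, 90.2 and 89.3 CPM against 59.4, 31.8 and 48.3 CPM. Ipo8, a further importin, was at 31.4, 31.9 and 36.6 CPM against 16.6, 19.8 and 10.3 CPM, and Thop1, a peptidase of the cytosol, at 34.7, 33.4 and 32.4 CPM against 19.8, 16.3 and 17.7 CPM. The anti-B7-H3 replicates of Top3a, Ipo5 and Thop1 lay close together, while their lack of overlap with the anti-PD1 ones was a condition of choice. The IgG libraries were at 11.3 to 26.6 CPM for Top3a and 64.6 to 109 CPM for Ipo5, above the anti-PD1 libraries, but at 13.1 to 22.1 CPM for Thop1, around the anti-PD1 level.

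The other 6 ran between log2 differences of -1.14 (Urb1, a factor of ribosome assembly) and -0.67 (Gart, an enzyme of purine synthesis). Adar, which edits adenosine in double-stranded RNA, was at 98.2, 87.9 and 91.1 CPM with anti-B7-H3 and at 59.3, 65.0 and 45.7 CPM with anti-PD1, but 1365 of its exonic bases overlap Chrnb2 on the opposite strand. Pds5b, a cohesin regulator, was at 47.8 to 64.9 CPM against 33.3 to 37.1 CPM, and Vps13b, a lipid transfer protein, at 75.6 to 110 CPM against 50.5 to 57.7 CPM. Mcm3ap, a factor of mRNA export, was at 51.8 to 72.4 CPM against 19.0 to 36.1 CPM. Opposite-strand genes also overlap exons of Mcm3ap (188 bases of Ybey), Gart (1014 bases of Gm15964), Ipo8 (16 bases of 2610017A05Rik) and Vps13b (368 bases of Gm48960 and 250 of Cox6c). Adjusted p-values in edgeR were 0.803 to 0.879 for the genes of this group other than Top3a and the V segments.

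**Figure D4:**
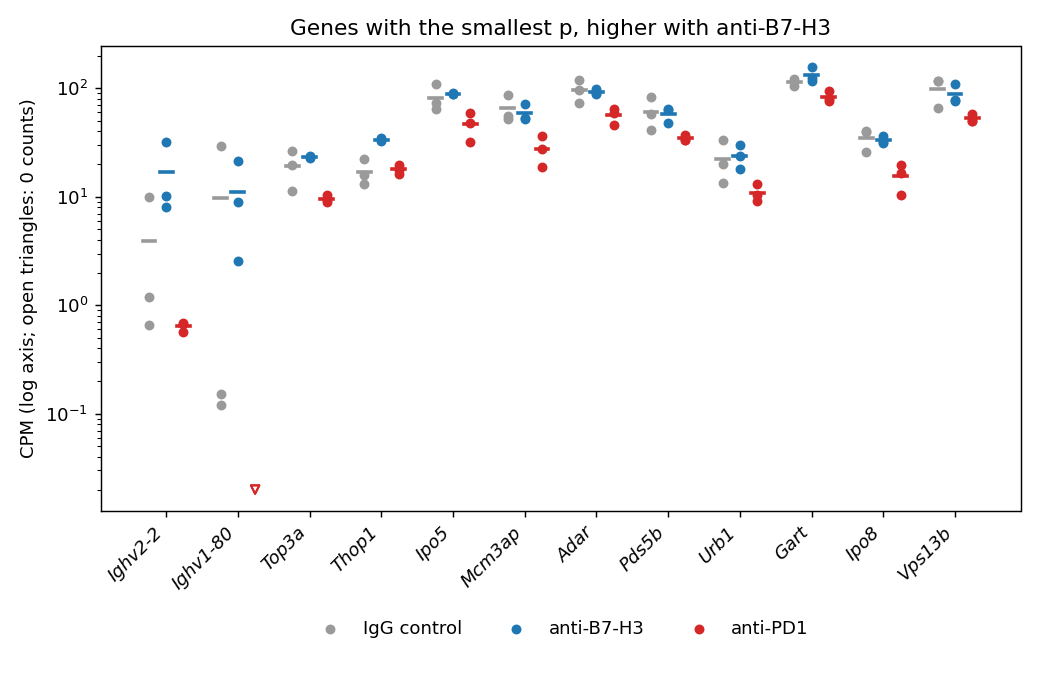
CPM (log axis) of the 12 genes with the smallest p on the anti-B7-H3 side, 1 point per library and a bar at each group's mean, coloured by group; the open triangle stands for the 3 anti-PD1 libraries of Ighv1-80 at 0 counts. The genes were chosen among those without overlap of the groups. The 2 V segments spread widely among anti-B7-H3 and IgG libraries, while Top3a lies at 22.6 to 23.6 CPM with anti-B7-H3 and 9.03 to 10.3 CPM with anti-PD1.

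The antibody targets and their partners were read next. Cd276, the gene of B7-H3, was near the bottom of the table in sorted immune cells, at 1.16, 2.76 and 2.55 CPM with anti-B7-H3 and at 1.01, 0.689 and 0 CPM with anti-PD1, 185 against 49 counts. Its interval ran from -5.23 to 1.38, so the level could not be compared closely. Pdcd1, the gene of PD1, was at 43.6, 112 and 128 CPM with anti-B7-H3 and at 113, 167 and 121 CPM with anti-PD1, and the groups overlapped (log2 difference 0.50 ± 0.36, edgeR adjusted p = 0.920). An antibody that blocks a protein need not alter its mRNA, so neither gene checks the treatment labels.

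Of this list's 12 tested members, 3 kept the groups apart with anti-PD1 higher and 2 with anti-B7-H3 higher. The shares of all tested genes were 6.55% and 7.02%. The 3 were ligands of PD1 or CD28, and the 2 were Cd276 and Treml2. Cd274, the gene of PD-L1, was at 19.9, 29.6 and 39.3 CPM with anti-B7-H3 and at 50.2, 45.6 and 71.9 CPM with anti-PD1, a log2 difference of 0.91 ± 0.30 (edgeR adjusted p = 0.892). Pdcd1lg2, the gene of PD-L2, was at 11.3, 8.98 and 9.79 CPM against 14.2, 12.7 and 12.9 CPM. Cd80, a ligand of CD28 and CTLA-4, was at 4.73, 7.20 and 6.91 CPM against 16.7, 15.6 and 22.3 CPM (log2 difference 1.53 ± 0.33, edgeR adjusted p = 0.684). These 3 kept the groups apart with anti-PD1 higher, while Cd86, the sister ligand of Cd80, overlapped at 16.7 to 19.7 CPM against 13.1 to 22.3 CPM.

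For 4 of the 12 tested members the interval lay within 2-fold (46.3% of all tested genes). Among them were Cd47, the signal that protects cells from phagocytosis, at 522 to 538 CPM against 536 to 639 CPM (interval -0.21 to 0.45), and Vsir, the inhibitory protein VISTA, at 130 to 166 CPM against 124 to 157 CPM. Icosl, the ligand of ICOS, was at 18.3 to 19.9 CPM against 17.7 to 24.4 CPM. Sirpa, the myeloid receptor of CD47, was at 53.5, 49.2 and 41.5 CPM with anti-B7-H3 and at 66.0, 33.9 and 24.2 CPM with anti-PD1, and the groups overlapped. Treml2, named as a possible receptor of B7-H3, was at 9.93 to 11.3 CPM against 5.77 to 9.76 CPM without overlap, and Trem2, a lipid receptor of macrophages, was at 28.2 CPM in anti-B7-H3 replicate 1 and 6.71 to 11 CPM in the other 5. Vtcn1 was too low to test and Hhla2 was not matched.

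T cell genes as a class had no common direction. Of 18 tested pan T cell genes 10 were above 0, the median was 0.02 and for 16 the interval lay within 2-fold. Such an interval was held by 46.3% of all tested genes and by 84.9% of those with a mean of at least 50 CPM. T cell receptor genes took 0.380% ± 0.0479 of the counts in the anti-B7-H3 libraries and 0.352% ± 0.0465 in the anti-PD1 libraries (SD, n = 3 each; exact two-sided permutation p = 0.5). Within the class Cd28, the costimulatory receptor, was the gene with the smallest p, at 69.7, 118 and 138 CPM against 170, 146 and 232 CPM.

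Genes of regulatory T cells were all higher with anti-PD1 in mean. The 12 tested members had log2 differences between 0.31 and 1.43, 8 kept the groups apart (6.55% of all tested genes) and 8 had an unadjusted p under 0.05 (3.41%). Ctla4, the inhibitory receptor these cells carry, was at 105, 257 and 252 CPM with anti-B7-H3 and at 459, 406 and 635 CPM with anti-PD1, a log2 difference of 1.29 ± 0.34 (edgeR adjusted p = 0.879). Tnfrsf4, the receptor OX40, was at 198, 518 and 500 CPM against 927, 702 and 944 CPM, and Ikzf4, the transcription factor Eos, at 8, 13.8 and 30.3 CPM against 36.3, 47.5 and 45 CPM. Foxp3, the lineage factor, and Il2ra, the high-affinity interleukin 2 receptor, were added after their values were seen. Foxp3 was at 57.7, 237 and 237 CPM against 359, 257 and 496 CPM, and Il2ra at 23.3, 97.6 and 106 CPM against 150, 117 and 188 CPM, with narrow gaps between the groups.

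The size of that difference moved with the libraries that stood apart. The summed level of the list was 1034 CPM in anti-B7-H3 replicate 1, 2517 and 2579 CPM in the other anti-B7-H3 libraries and 3929, 3232 and 4724 CPM with anti-PD1, with the highest in anti-PD1 replicate 3. The median log2 difference was 1.03, 0.69 without anti-B7-H3 replicate 1 and 0.53 without both libraries. Members with an unadjusted p under 0.05 numbered 3 without anti-PD1 replicate 3 and 5 without both. The IgG libraries held 2826, 4221 and 2596 CPM in replicates 1 to 3. The highest, IgG control 2, stood apart with 1814 tested genes at 0 counts against 299 and 775 in the other IgG libraries. The anti-B7-H3 libraries lay below all IgG libraries, but replicates 2 and 3 only narrowly below IgG control 3. The anti-PD1 libraries lay above IgG controls 1 and 3, and only anti-PD1 replicate 3 lay above IgG control 2. Ccr8, the chemokine receptor of tumour regulatory T cells, was at 107, 277 and 299 CPM against 433, 378 and 524 CPM. Il10, an inhibitory cytokine, overlapped at 6.40 to 15.1 CPM against 14.8 to 44.2 CPM.

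Helper T cell genes split by role. Icos, a costimulator of activated and regulatory T cells, was at 57.3, 127 and 141 CPM with anti-B7-H3 and at 209, 226 and 465 CPM with anti-PD1, and Il7r, the interleukin 7 receptor, at 115 to 149 CPM against 160 to 258 CPM. Tcf7, the factor of naive and stem-like T cells, was at 528, 351 and 373 CPM against 276, 308 and 256 CPM. Icos and Il7r were apart with anti-PD1 higher and Tcf7 was apart with anti-B7-H3 higher. The list's median was -0.03.

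Most cytotoxic genes had a higher mean with anti-B7-H3, with little separation of the libraries. Of 15 tested CD8 and cytotoxic genes 10 were below 0, the median was -0.18 and 1 kept the groups apart (7.02% of all tested genes). An unadjusted p under 0.05 was held by 2 (2.17% of all tested genes), both subunits of the CD8 coreceptor. Cd8a was at 219, 134 and 137 CPM with anti-B7-H3 and at 63.2, 124 and 104 CPM with anti-PD1, a log2 difference of -0.75 ± 0.29 (edgeR adjusted p = 0.892). Cd8b1 overlapped at 560, 240 and 229 CPM against 125, 192 and 234 CPM. Killing genes overlapped too and had no common direction. Prf1 (perforin) was at 230 to 418 CPM against 166 to 348 CPM and Gzma (granzyme A) at 809 to 978 CPM against 631 to 880 CPM. Gzmb (granzyme B), named after its values were seen, was among the 5 members above 0. It was at 263, 668 and 520 CPM with anti-B7-H3 and at 892, 433 and 807 CPM with anti-PD1 (log2 difference 0.55 ± 0.37).

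NK cell genes were below 0 in 11 of 14 tested members, with a median of -0.32 (-0.19 without anti-PD1 replicate 3) and 0 apart in either direction. Xcl1, a chemokine that NK and CD8 T cells release toward cross-presenting dendritic cells, was at 150, 186 and 209 CPM against 103, 161 and 123 CPM. Klrb1c, the NK1.1 receptor, was at 192 to 226 CPM against 126 to 192 CPM. Inhibitory receptors of exhausted T cells had 8 of 13 tested members above 0 and a median of 0.42, which was 0.15 without anti-B7-H3 replicate 1. Besides Ctla4, the list's Entpd1, the ectoenzyme CD39, was at 30.7 to 56.0 CPM against 68.0 to 75.1 CPM.

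**Figure D5:**
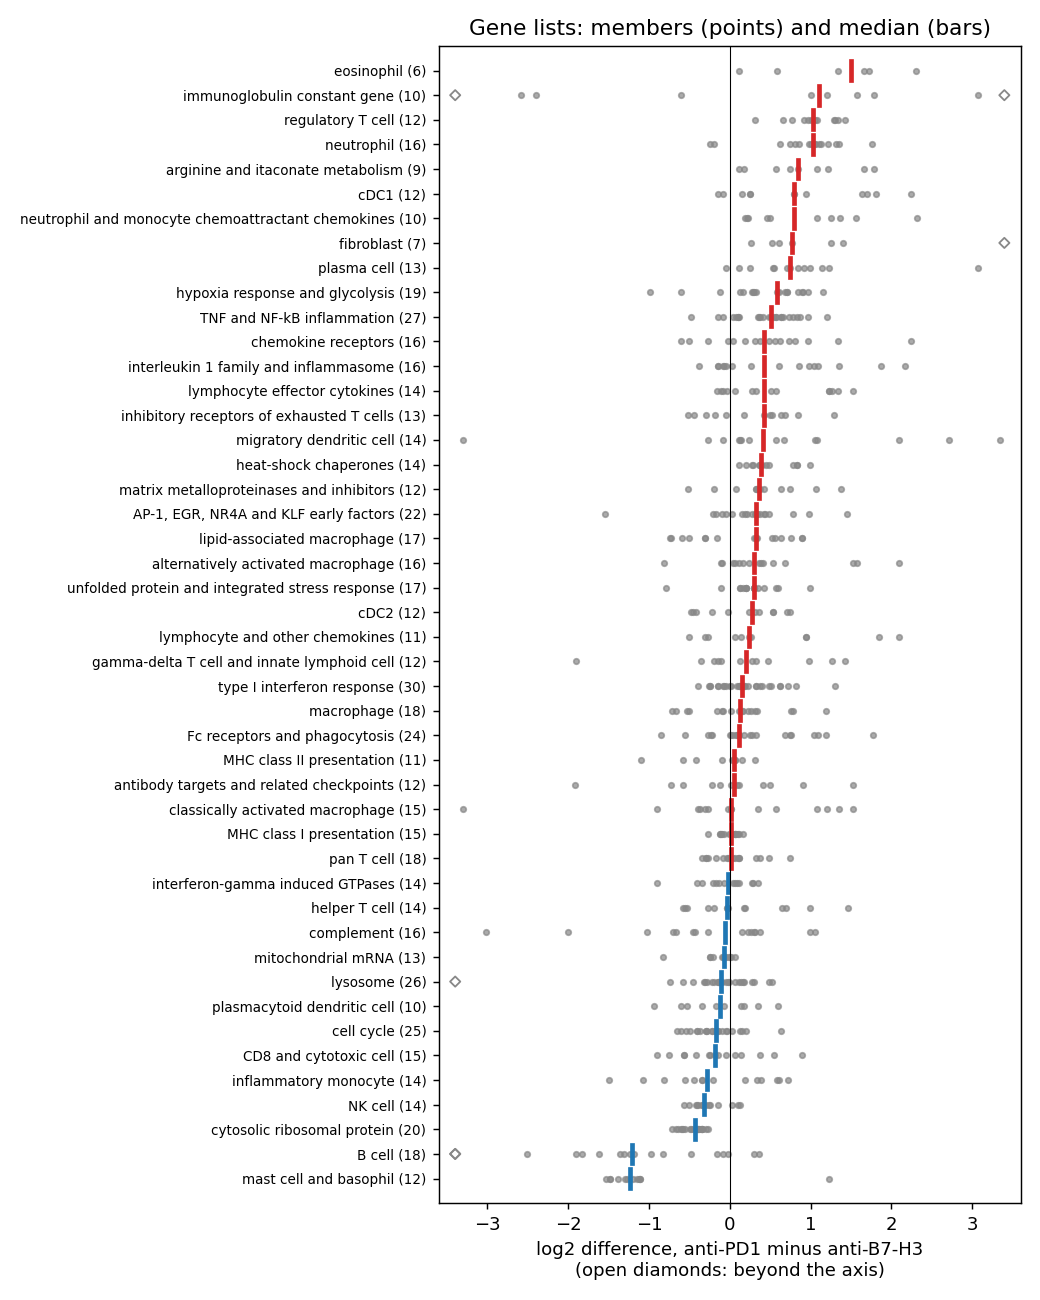
Log2 difference (anti-PD1 minus anti-B7-H3) of every tested member of the lists with 5 or more tested members, grey points, and each list's median, coloured bar; numbers in brackets are tested members and open diamonds lie beyond the axis. Regulatory T cell and neutrophil lists have medians of 1.03, MHC class I members cluster around 0.02, and the B cell and mast cell medians of -1.21 and -1.24 come with 1 anti-B7-H3 library each.

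Macrophage genes had no common direction. Of 18 tested members 11 were above 0, the median was 0.13, and 2 kept the groups apart with anti-PD1 higher (6.55% of all tested genes). Cd14, the coreceptor for bacterial lipopolysaccharide, was at 299, 288 and 204 CPM with anti-B7-H3 and at 402, 396 and 541 CPM with anti-PD1. Some identity genes, among the 7 members below 0, pointed the other way and overlapped. Csf1r, the receptor of the macrophage growth factor, was at 348, 186 and 235 CPM against 218, 149 and 121 CPM, Adgre1 (F4/80) at 20.8 to 43.6 CPM against 16.4 to 23.8 CPM, and Lyz2 (lysozyme) at 772 to 1330 CPM against 561 to 827 CPM. Anti-B7-H3 replicate 1 had the highest value of all 3 genes.

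Among genes of lipid handling, Fabp5, a fatty acid carrier, was at 75.4, 77.9 and 74.0 CPM with anti-B7-H3 and at 156, 153 and 114 CPM with anti-PD1, a log2 difference of 0.89 ± 0.17 (edgeR adjusted p = 0.557). Plin2, the coat protein of lipid droplets, was at 103 to 115 CPM against 143 to 175 CPM, and Spp1 (osteopontin) at 409, 838 and 546 CPM against 1440, 974 and 901 CPM. Of the 17 tested genes of lipid-associated macrophages 5 were apart with anti-PD1 higher (6.55% of all tested genes), these 3 among them. Trem2 of the same list pointed the other way. The median was 0.32, and 0.21 without anti-PD1 replicate 2. C5ar1, the receptor of complement C5a on neutrophils and macrophages, was at 36.5, 38.8 and 58.0 CPM against 91.9, 98.0 and 74.9 CPM. Its list, complement, had 8 of 16 tested members above 0 and a median of -0.06.

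Lists of macrophage polarisation gave no single direction. Classically activated genes had 8 of 15 tested members above 0 and a median of 0.02. With anti-PD1 higher 5 were apart (6.55% of all tested genes), Il1b, Cd80, Ptgs2 and Nos2 among them. With anti-B7-H3 higher 1 was apart (7.02%). It was Il12b, named after its values were seen, at 3.27, 1.15 and 1.08 CPM against 0.537, 0 and 0 CPM. Alternatively activated genes had 13 of 16 above 0 and a median of 0.30, which was 0.17 without anti-PD1 replicate 2. Among chemokine receptors, with 12 of 16 above 0 and a median of 0.43, Ccr1, which myeloid cells use, was at 73.4, 90.4 and 122 CPM against 192, 156 and 126 CPM, and Cxcr4, the receptor of CXCL12, at 72.5 to 80.1 CPM against 83.4 to 149 CPM. The median of the receptors was 0.24 without anti-B7-H3 replicate 1. Inflammatory monocyte genes had 6 of 14 above 0 and a median of -0.28.

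Dendritic cell genes varied by library. Markers of cDC1, the cross-presenting subset, had a median of 0.80, which was 0.10 without anti-PD1 replicate 2. Migratory dendritic cell genes had a median of 0.41 and 0.14 without the same library. Ccl22, their chemokine for regulatory T cells, was at 2.04, 2.63 and 3.54 CPM with anti-B7-H3 and at 4.76, 24.2 and 6.51 CPM with anti-PD1, so anti-PD1 replicate 2 held most of it. Samsn1 (117 to 240 CPM against 302 to 504 CPM), an adaptor of lymphocytes, and Socs2 (36.7 to 48.3 CPM against 62.3 to 74.7 CPM), a brake on cytokine signalling, of the same list did not rest on that library.

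Antigen presentation genes had no common direction. For 15 of 15 tested MHC class I genes the interval lay within 2-fold, and the median was 0.02. Over all tested genes 46.3% had such an interval, and 84.9% of those with a mean of at least 50 CPM. Tapbp, the peptide-loading chaperone tapasin, had the smallest p of them at 532, 569 and 555 CPM with anti-B7-H3 and 462, 408 and 501 CPM with anti-PD1. For MHC class II the interval lay within 2-fold in 8 of 11 tested genes, with a median of 0.05. The same held for 12 of 14 interferon-gamma induced GTPases (median -0.02), among which Irgm1 was apart at 83.7 to 87.0 CPM against 62.6 to 73.0 CPM.

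Type I interferon genes had 20 of 30 tested members above 0, a median of 0.15 and 18 intervals within 2-fold (46.3% of all tested genes). A few kept the groups apart with anti-PD1 higher, 5 in number (6.55% of all tested genes), and 0 the reverse. Isg15, a ubiquitin-like antiviral protein, was at 30.5, 24.6 and 28.9 CPM against 50.6, 34.6 and 53.5 CPM, Rsad2 (viperin) at 5.30 to 13.2 CPM against 13.9 to 27.4 CPM, Ifi27l2a at 108 to 181 CPM against 200 to 240 CPM, and Isg20, an RNA exonuclease, at 40.6 to 83.7 CPM against 90.7 to 112 CPM.

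Most stress genes had a higher mean with anti-PD1. All 14 tested heat-shock chaperones were above 0, 5 were apart (6.55% of all tested genes) and the median was 0.39. Dnaja1, a cochaperone of HSP70, was at 526, 552 and 662 CPM with anti-B7-H3 and at 895, 1020 and 1180 CPM with anti-PD1, a log2 difference of 0.83 ± 0.17 (edgeR adjusted p = 0.662). Hsp90aa1, the inducible HSP90, was at 1310 to 1560 CPM against 1750 to 3790 CPM, with the highest value in anti-PD1 replicate 2, without which the list's median was 0.16. Hsph1 (125 to 226 CPM against 240 to 366 CPM) and Hspa8 (5630 to 6060 CPM against 7120 to 9710 CPM), both of the HSP70 system, were apart too. Unfolded protein response genes had 15 of 17 tested members above 0 and a median of 0.30 (0.19 without anti-PD1 replicate 1), with Creld2, a chaperone of the endoplasmic reticulum, at 113 to 137 CPM against 142 to 235 CPM.

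Early response factors, which tissue dissociation can induce, had 17 of 22 tested members above 0 and a median of 0.32. Intervals within 2-fold numbered 16 (46.3% of all tested genes). Fosl2, an AP-1 subunit, was at 21.1, 35 and 42.6 CPM with anti-B7-H3 and at 60.3, 49.4 and 85.5 CPM with anti-PD1. The median was 0.17 without anti-B7-H3 replicate 1. Since heat-shock and early response genes were on the same side as the interleukin 1, NF-kB and neutrophil genes, they are given here beside them, and their part in those differences was not tested.

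Other cells and single libraries set several of the remaining lists. Mast cell and basophil genes summed to 547, 8205 and 3318 CPM with anti-B7-H3 and to 1410, 2994 and 586 CPM with anti-PD1, with a median of -1.24 that was -0.21 without anti-B7-H3 replicate 2. Cma1, a mast cell chymase, was at 39.2, 728 and 196 CPM against 145, 155 and 44.6 CPM, and Mcpt8, a basophil protease, at 3.35, 26.1 and 11 CPM against 4.61 to 6.34 CPM. Cytosolic ribosomal protein genes had a median of -0.43, which was 0.07 without anti-B7-H3 replicate 1, and their share of counts was 5.93% ± 2.97 against 4.33% ± 0.301 (SD, n = 3 each; exact two-sided permutation p = 0.6). Mitochondrial transcripts took 3.35% ± 0.999 against 3.17% ± 0.771 (exact two-sided permutation p = 0.8). Of 25 tested cell cycle genes 20 were below 0 with a median of -0.17, and Mcm2, a subunit of the replication helicase, was at 150 to 180 CPM against 83.7 to 136 CPM.

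Genes of cells that a CD45 gate should exclude were low in both groups. Of 13 fibroblast genes 7 were tested and all 7 were above 0. They summed to 25.9, 34.2 and 42.0 CPM with anti-B7-H3 and to 68.2, 104 and 47.7 CPM with anti-PD1, and Sparc, a matrix protein, made up much of it at 6.04 to 18.7 CPM against 18.4 to 61.5 CPM. Col1a2, a collagen chain, had the smallest p of the fibroblast genes, at 0.0727, 0 and 0.33 CPM against 2.85, 0.617 and 7.9 CPM, from 12 and 295 counts (log2 difference 4.72 ± 1.60). Of endothelial, platelet and keratinocyte lists 2 members each were tested, and of the erythroid list 3. The endothelial list summed to 103 to 108 CPM against 42.2 to 81.1 CPM, the other 3 lists to at most 69.8 CPM in a library. The fibroblast sums were on the same side as the inflammatory genes, and their part in those differences was not tested.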

How the data were processed

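Per the file headers, the columns for 58083 transcripts in each file are length, effective length, TPM and estimated counts (NumReads). The authors' estimated counts are neither whole nor normalised, and the deposited TPM values sum to 1000000 in each library. Per the submitters' processing notes the genome build was GRCm38 and FastQC 0.11.8 was used. Which quantifier was run is not given in the sources used here. Per the labels' protocols, samples with a RIN from 7.0 upward and at least 500 ng of RNA went into SMART-Seq v4 amplification, ribosomal RNA depletion and Nextera XT libraries, which do not mark strand. Of the lengths, 87.3% are multiples of 3, so most hold no untranslated regions and are called coding lengths.

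GENCODE M21 matched 57409 transcripts, and 674 were not used (0.26% to 0.547% of the counts in the 6 libraries). Estimated counts were summed over 22136 genes and rounded to whole numbers. The test was edgeR 4.0.16 in R 4.3.3 on the 6 libraries (TMM, filterByExpr, robust glmQLFit, glmQLFTest, Benjamini-Hochberg adjustment, threshold 0.05), without covariates. IgG values are printed as background on the same scale. Exact permutation tests were used for gene class shares, on unscaled totals. Reads are PCR copies without molecular identifiers, so a floor of 3 counts covers counting error only.

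The 51 gene lists, the members and the rule for named genes were chosen with earlier results of these data known. The rule takes, per direction, up to 12 genes with no overlap of the libraries, a mean of 5 CPM or more in the higher group and no clone name, by fold among called genes and otherwise by smallest p. It adds the antibody targets and up to 4 members with the smallest p of each list described. The text leaves out 1 gene that the rule would add. Ptprc, Ighv1-81, Foxp3, Il2ra, Igha, Gzmb and Il12b lie outside it. Alternatives were DESeq2 1.42.0, limma 3.58.1 (voom), other size factors, filters, dispersions, count scales (length-scaled TPM) and gene tables, all 9 libraries, a replicate block, and fits that leave out each library. Promoter and V segment sequences are from RefSeq (GRCm38.p6) and GENCODE M21. No pair of replicates agreed within counting noise.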

Additional observations from a re-analysis of the deposited data

How the results depend on the processing

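DESeq2 called 47 genes higher with anti-PD1 and 12 higher with anti-B7-H3, and edgeR without a filter on low counts called 8 and 2. Leaving out 1 library gave 0 genes higher with anti-PD1 and 0 to 1 higher with anti-B7-H3, the 1 without anti-B7-H3 replicate 3. Without anti-B7-H3 replicate 1 and anti-PD1 replicate 3 together, 2 against 2, edgeR called 1 and 1. The other settings called 0 and 0, with smallest adjusted p-values between 0.0507 (limma-voom) and 1 (all 9 libraries), and the cause of these differences was not tested. With the replicate number as a block (replicate block) the counts were 0 and 0, the smallest adjusted p was 0.163 and 5425 genes had an interval within 2-fold. The numbers did not pair the libraries, since same-numbered libraries had correlations of -0.11 to -0.09 in their deviations from the group means. Intervals within 2-fold numbered 4653 to 7268 over the settings.

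Directions reversed for a few values near 0 or set by 1 library. Leaving out 1 library at a time, the log2 difference ran from -0.13 to 0.22 for Cd86, -0.05 to 0.18 for Icosl, -0.72 to 0.06 for Sirpa, -1.0 to 0.03 for Trem2, -1.60 to 0.07 for Cd79b and -0.08 to 0.21 for Ptprc. The libraries whose absence reversed a value were anti-B7-H3 replicate 1 (Trem2, Cd79b and Ptprc), anti-B7-H3 replicate 3 (Cd86), anti-PD1 replicate 1 (Icosl), anti-PD1 replicate 2 (Cd86) and anti-PD1 replicate 3 (Cd86, Sirpa and Ptprc). Without both libraries that stood apart, the values were -0.01 for Cd86, 0.14 for Sirpa, 0.21 for Trem2, 0.20 for Cd79b and -0.17 for Ptprc. Limma-voom gave -0.09 for Cd86, 0.00 for Trem2 and -0.03 for Ptprc, length-scaled TPM counts -0.09 for Ptprc, and the replicate block -0.02 for Cd86. Differences in shares of counts (percentage points, anti-PD1 minus anti-B7-H3) ran, with 1 library left out, from -0.544 to 0.39 for mitochondrial genes, -2.57 to 0.106 for ribosomal protein genes and -0.000631 to 0.00072 for haemoglobin genes. Of the other values, 2861 of single genes and list medians under an alternative kept direction and side of the threshold, 41 passed it only there and 63, list medians and counts of list members, moved by more than their spread or 1.5 times. Depth limits Cd276, Cxcl1 and other genes of a few CPM.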
